A study of Mus musculus with 7 samples.

Results

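The genes described here are 51 genes whose products build and control the mitotic spindle and the kinetochore, taken as a list of gene symbols from the 53465 genes of the deposited table. All 51 symbols matched 1 row each, and all 51 were among the 15645 genes that passed the filter on low counts. The list was drawn up with measured values of these tumors known, so the levels and differences of its members are given as a description, and no member's value is offered as support for the choice. The study asked how tumors that had become resistant to blockade of PD-L1, a surface ligand that restrains T cells, differed from tumors of the parental line, and RNA was sequenced from 7 pieces of tumor tissue. Tumors came from EMT6, a mouse mammary carcinoma cell line implanted into the mammary fat pad of female BALB/c mice aged 6 to 8 weeks. The 3 EMT6-P tumors received an isotype control IgG antibody. The 3 EMT6-PTR tumors, named PDR in the labels, and the 1 EMT6-PTR metastasis received anti-PD-L1 antibody. Both antibodies were given at 250 μg per mouse every 3 days from day 1 after implantation until endpoint, and the labels name no genetic alteration in any group. EMT6-PTR is a variant that was selected in treated mice, so selection and treatment cannot be told apart, and the labels do not say whether the EMT6-PTR tumors came from 1 selected tumor or several, or in which organ the metastasis grew. The labels number the tumors as replicates without naming the mice, and the study's legends call replicates technical unless stated otherwise, so whether these are separate animals is not settled and p-values measure only the spread between these samples, which may be technical. Libraries held between 20430110 and 25213472 estimated counts.

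At entry into mitosis the kinase CDK1 binds cyclin B, the centrosomes separate, and microtubules form a spindle that attaches to each chromosome at the kinetochore, a protein plate built on the centromere. The spindle assembly checkpoint delays anaphase until every kinetochore is attached, after which a ubiquitin ligase marks cyclin B and securin for destruction and the sister chromatids part. Most of the genes in this machinery are transcribed late in the cell cycle, in G2 and M phase, so in a bulk tumor their summed RNA is widely used as a readout of dividing cells. In bulk tissue, fewer dividing cells and less mitotic RNA in each cell cannot be told apart.

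The 7 libraries fell into 2 levels of these genes, and the division did not follow the study's groups. The level of a library is the mean over the 51 members of log2 CPM (counts scaled to 1000000 per library), adjusted by the upper quartile of each library. It was 5.69, 5.76 and 5.73 in EMT6-P replicates 1 to 3, a mean of 5.72 ± 0.037 (SD, n = 3). In EMT6-PTR replicates 1 to 3 it was 5.82, 5.67 and 3.18, a mean of 4.89 ± 1.48 (SD, n = 3). The metastasis stood at 3.15. EMT6-PTR replicates 1 and 2 therefore lay within 0.10 of the EMT6-P mean, while EMT6-PTR replicate 3 lay 5.82-fold lower and the metastasis 5.93-fold lower. The same split was present in the unscaled counts. The 51 genes held 0.336%, 0.342% and 0.352% of all counts in the EMT6-P tumors, 0.401% and 0.289% in EMT6-PTR replicates 1 and 2, 0.0642% in EMT6-PTR replicate 3 and 0.0628% in the metastasis.

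**Figure D1:**
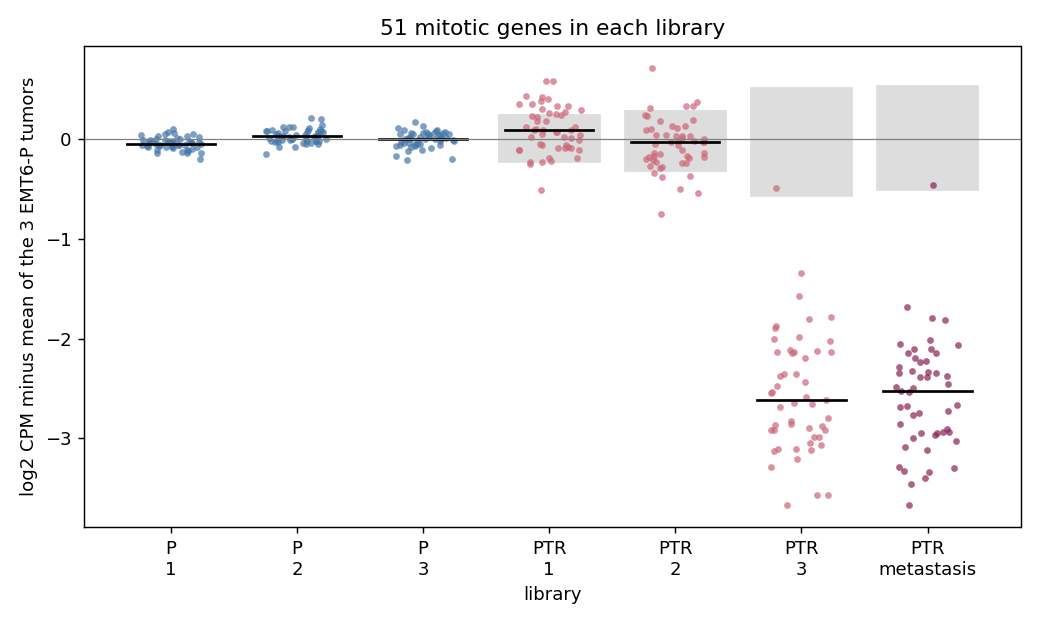
Each point is 1 of the 51 mitotic genes in 1 of the 7 libraries, on the vertical axis as log2 CPM minus the mean of the 3 EMT6-P tumors; black lines are medians over the members and grey boxes span the lower to upper quartile of all 15645 genes tested (drawn for the EMT6-PTR libraries and the metastasis). The members' medians were 0.09 and -0.03 in EMT6-PTR replicates 1 and 2, against -2.62 in replicate 3 and -2.52 in the metastasis.

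Every member took part in this division. EMT6-PTR replicate 3 and the metastasis held the 2 lowest of the 7 values for all 51 members, a pattern that 21.7% of all genes tested showed. Replicate 3 was the lowest library for 26 members and the metastasis for 25. Against the mean of the EMT6-P tumors, 50 members were at least 2-fold lower in EMT6-PTR replicate 3 (13.6% of all genes tested) and 43 were at least 4-fold lower (4.49% of all genes). In the metastasis, 50 members were at least 2-fold lower (11.2% of all genes) and 47 at least 4-fold lower (3.43% of all genes). The exception in both was Bub3, a checkpoint protein. No member was 2-fold lower or higher in EMT6-PTR replicate 1 or 2, where 1.74% and 3.65% of all genes were at least 2-fold lower and 587 and 815 of the 15645 were higher by 2-fold or more. EMT6-PTR replicate 1 lay below all 3 EMT6-P tumors for 15 members (32.5% of all genes) and above all 3 for 25 (32.6%). EMT6-PTR replicate 2 lay below all 3 for 22 (38.2%) and above all 3 for 14 (33.8%), while replicate 3 and the metastasis lay below all 3 for all 51 (42.7% and 43.2%). Which of these higher libraries was highest varied by gene, with EMT6-PTR replicate 1 highest of the 7 for 22 members, EMT6-P replicates 1, 2 and 3 for 8, 5 and 10, and EMT6-PTR replicate 2 for 6. These are comparisons of single libraries, so no test applies to them.

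EMT6-PTR replicate 3 and the metastasis were close to each other gene by gene. The difference between them, metastasis minus replicate 3, had a median of 0.0014 on the log2 scale over the members and ran from -0.55 for Prc1 to 0.40 for Kif23. All 51 members were within 2-fold, as were 80.1% of all genes tested. They were nevertheless different samples. The Pearson correlation of log2 CPM across genes between them was 0.901, below the 0.976 to 0.985 found among the EMT6-P tumors, where genes are not independent replicates. Replicate 3 correlated at 0.9115 with EMT6-PTR replicate 2, 0.872 with EMT6-PTR replicate 1 and 0.900 to 0.908 with the EMT6-P tumors. By this correlation across all genes, replicate 3 was no closer to the metastasis than to some libraries high in mitotic RNA. Another measure, the chi-square of counts per degree of freedom, is smaller for libraries that are more alike. It was 212 between replicate 3 and the metastasis, and 227 to 484 between replicate 3 and the other primary tumors. The measures thus gave different orders.

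The promoters of members show what sequence they share outside the measured values. G2 and M phase genes are known for 2 promoter elements, the cell cycle homology region (CHR) and the CCAAT box. RefSeq promoter windows on GRCm38.p6, each covering 250 bases before to 50 bases after a transcript start, were matched for 42 of the 51 members, giving 47 windows. The CHR was searched as TTTGAA or TTCGAA on both strands and was found in 34 of the 47 windows (72.3%), against 19.2% of all 32851 windows in the table. The box CCAAT, on both strands, was in 36 (76.6%) against 37.4%, and both elements together in 31 (66.0%) against 7.52%. The E2F site of genes transcribed at the G1 to S transition, searched as TTCGCGC, also as TTGGCGC and also as TTCCCGC on both strands, was in 12 windows (25.5%) against 8.07%. A match is a description of the letters and not evidence that a factor binds there. The 31 members with a CHR had a median of -2.69 in EMT6-PTR replicate 3 relative to EMT6-P, and the 11 without one in the window had -2.13, with no test made. For the CCAAT box the medians were -2.69 with and -2.54 without. For the E2F site the order was the opposite, -2.58 with and -2.69 without. In the metastasis the medians were -2.68 with and -2.38 without a CHR, and -2.68 and -2.39 for the CCAAT box. They were -2.38 and -2.68 for the E2F site.

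The promoters of 4 members are printed to show these elements in the member furthest below its EMT6-P mean in EMT6-PTR replicate 3, in the kinase and cyclin that start mitosis, and in the member that differed least. Letters in capitals are CHR and CCAAT matches, in either orientation, so that the CCAAT box on the reverse strand reads ATTGG and the CHR reads TTCAAA or TTCGAA. Top2a, at chr11:99024140-99024439 on the minus strand, has 4 CHR and 6 CCAAT matches. Cdk1, at chr10:69352863-69353162 on the minus strand, has 2 CHR and 3 CCAAT matches. Ccnb1, at chr13:100786437-100786736 on the minus strand, has 2 CCAAT matches and no CHR in this window. Bub3, at chr7:131560120-131560419 on the plus strand, has 1 CHR and 2 CCAAT matches. Another Bub3 window, at chr7:131560244-131560543, overlaps this one, also has 1 CHR and 2 CCAAT matches, and is not printed.
Top2a: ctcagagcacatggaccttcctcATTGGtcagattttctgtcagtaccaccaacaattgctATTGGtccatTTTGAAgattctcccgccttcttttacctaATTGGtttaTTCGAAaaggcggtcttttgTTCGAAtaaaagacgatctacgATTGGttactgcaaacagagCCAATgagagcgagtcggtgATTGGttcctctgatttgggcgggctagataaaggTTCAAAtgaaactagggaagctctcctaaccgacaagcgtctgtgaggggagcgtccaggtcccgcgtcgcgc
Cdk1: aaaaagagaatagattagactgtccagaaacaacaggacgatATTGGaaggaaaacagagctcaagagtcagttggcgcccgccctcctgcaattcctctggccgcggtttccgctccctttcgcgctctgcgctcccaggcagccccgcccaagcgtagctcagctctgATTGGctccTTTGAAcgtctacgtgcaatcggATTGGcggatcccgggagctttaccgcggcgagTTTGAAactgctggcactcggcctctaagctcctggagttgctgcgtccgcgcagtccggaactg
Ccnb1: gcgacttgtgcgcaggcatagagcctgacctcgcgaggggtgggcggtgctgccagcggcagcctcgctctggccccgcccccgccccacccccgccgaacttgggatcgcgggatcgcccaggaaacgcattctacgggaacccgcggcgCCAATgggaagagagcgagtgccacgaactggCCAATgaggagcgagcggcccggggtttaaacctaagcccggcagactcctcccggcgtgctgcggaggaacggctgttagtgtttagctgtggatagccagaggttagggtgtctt
Bub3: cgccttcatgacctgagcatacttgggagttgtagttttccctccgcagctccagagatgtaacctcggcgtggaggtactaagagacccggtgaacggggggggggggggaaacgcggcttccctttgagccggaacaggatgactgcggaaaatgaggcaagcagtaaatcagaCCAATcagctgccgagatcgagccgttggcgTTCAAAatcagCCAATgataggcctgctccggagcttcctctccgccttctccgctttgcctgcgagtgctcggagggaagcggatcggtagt

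The study's own comparison, EMT6-PTR against EMT6-P tumors, was fitted with edgeR's quasi-likelihood test across all 15645 genes, and none passed an adjusted p of 0.05. The smallest adjusted p of edgeR was 0.421, with 1786 genes at an unadjusted p under 0.05 (914 higher, 5.84% of genes, and 872 lower, 5.57%). DESeq2 called 138 genes higher (1.01% of 13694) and 143 lower (1.04%), none of them a member. Among the members, 50 had a fitted log2 fold change below 0, as had 47.7% of all genes, and only Cenpe lay above it. The members' median was -0.44, with a range from -0.90 to 0.07 and a median standard error of 0.61, beside a median of 0.03 over all genes. No member had an unadjusted p under 0.05, and none was 2-fold lower (1.29% of all genes were) or 2-fold higher (6.27%). The size depended on the fit: limma-voom on the same tumors gave a median of -0.93 with 18 members at least 2-fold lower, and edgeR with the replicate number as a block gave -0.81 with 6. The edgeR fit without a block compares mean counts, in which 1 low tumor of 3 weighs less than in a mean of logarithms. In that mean the difference in level was -0.83. Why the block moved the median was not tested.

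Without EMT6-PTR replicate 3 the picture changed. The difference in mean level between the groups became 0.023, the median fitted log2 fold change became 0.006, and the members divided into 26 above and 25 below 0, where 50.8% of all genes were above. The median standard error fell from 0.61 to 0.11, and still no member reached an adjusted p of 0.05 in edgeR. An unadjusted p under 0.05 was found for 9 members, or 17.6% of them, beside 20.3% of all genes. Lower among these 9 were Ccnb2, Birc5, Cenpa and Pttg1, and higher were Foxm1, Bub1, Cenpe, Hmmr and Aspm. With all tumors, every EMT6-PTR value lay below every EMT6-P value for 12 members, where 11.8% of all genes did so. That order needs replicate 3 below all 3 EMT6-P tumors, which held for all 51 members. Of all genes it held for 6680, and 1845 of those had every EMT6-PTR value below. The 12 members are therefore not read as an excess. The reverse, every EMT6-PTR value above every EMT6-P value, held for no member (9.52% of all genes). It could not, since replicate 3 lay below all 3 EMT6-P tumors for all 51 members. The 12 were Cdk1, Ccnb2, Bub3, Aurkb, Birc5, Cdca8, Ndc80, Spc25, Cenpa, Racgap1, Cdc20 and Pttg1. By this definition EMT6-PTR replicates 1 and 2 were lower too for these 12, though by less than replicate 3. Without replicate 3, every EMT6-PTR value lay below every EMT6-P value for 12 members and above for 11. The share of all genes was not computed for that setting, so these counts are not read as a result about the members.

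**Figure D2:**
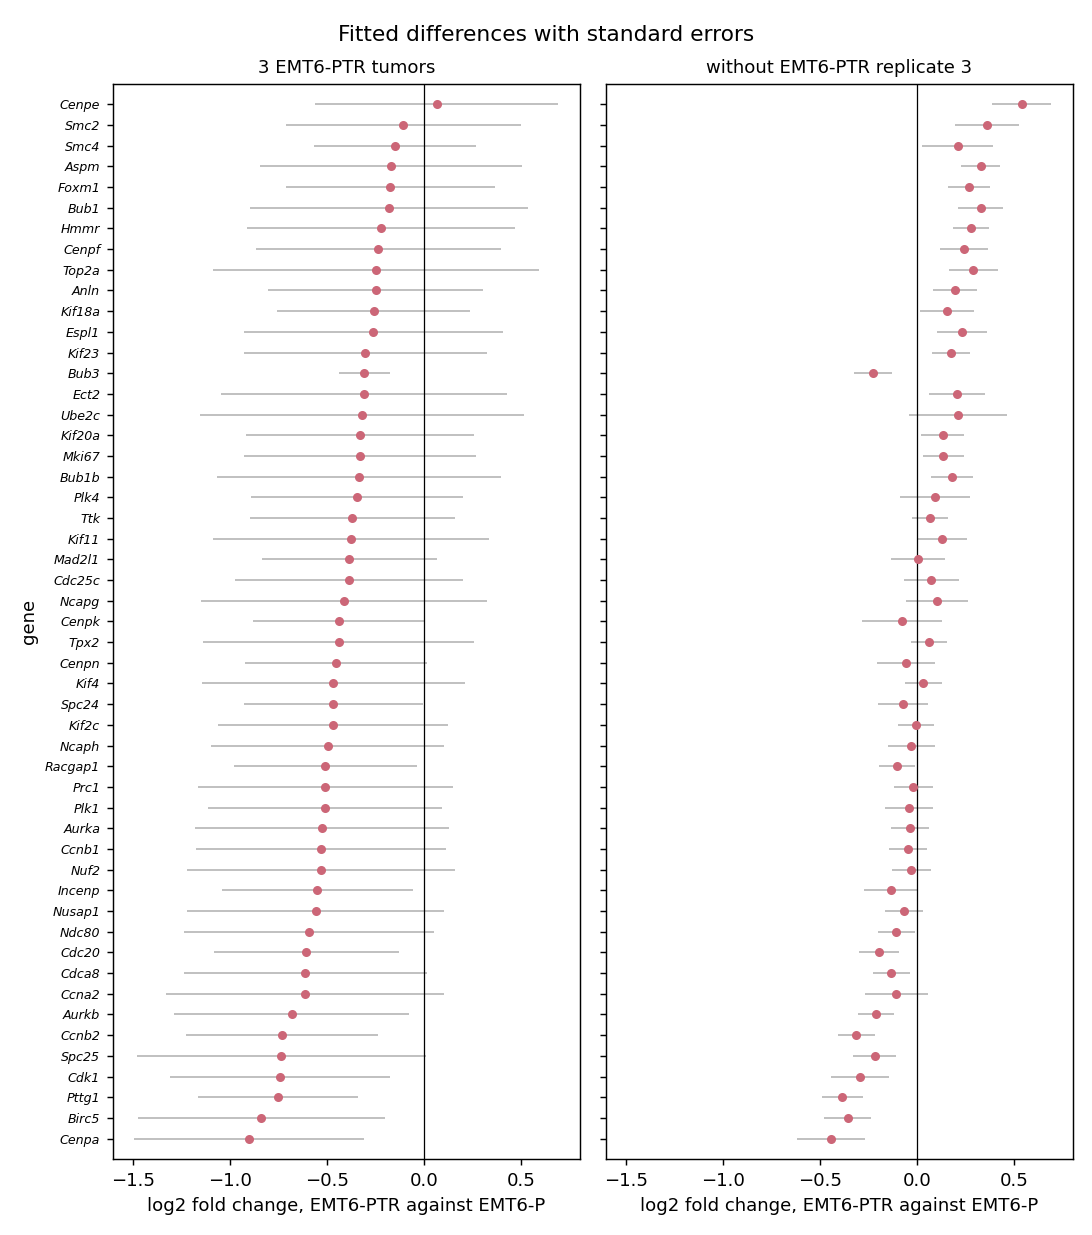
For each of the 51 members, the horizontal axis gives the log2 fold change between EMT6-PTR and EMT6-P tumors, one row a gene, with bars of 1 standard error from edgeR; the left panel uses 3 EMT6-PTR tumors and the right panel leaves out replicate 3. On the left 50 of 51 points lie below 0 with a median standard error of 0.61, and on the right 26 lie above 0 with a median standard error of 0.11.

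Kinases, cyclins and the transcription factor of mitotic entry (9 members) had a level, relative to the EMT6-P mean, of -2.57 in EMT6-PTR replicate 3 and -2.66 in the metastasis. Cdk1, the kinase that starts mitosis, measured 169, 180 and 178 CPM in the EMT6-P tumors, 165, 121 and 28.1 CPM in EMT6-PTR replicates 1 to 3, and 27.5 CPM in the metastasis. All 3 EMT6-PTR values lay under all EMT6-P values, with replicate 1 just under them. Its fitted log2 fold change was -0.74 with a standard error of 0.57 and an adjusted p of 0.601 in edgeR. That fold change was -0.29 without EMT6-PTR replicate 3 and -1.24 without replicate 1. Ccnb1 encodes cyclin B1, the partner of CDK1, and gave 70.6, 71.9 and 76.3 CPM in EMT6-P, 74.1, 67.5 and 9.96 in EMT6-PTR, and 9.43 in the metastasis. The groups overlapped, since EMT6-PTR replicate 1 lay among the EMT6-P tumors. Ccnb2, encoding cyclin B2, had 74.5, 74.7 and 79.2 CPM in EMT6-P and 64.1, 58.7 and 14.8 in EMT6-PTR, with 14.9 in the metastasis, and did not overlap. Per kilobase of exon it was the most abundant member, at 49.7 CPM per kilobase in EMT6-P. Plk1, a kinase of centrosome maturation and spindle assembly, measured 57.3, 65.6 and 60.6 CPM in EMT6-P, 65.2, 53.9 and 9.89 in EMT6-PTR, and 7.75 in the metastasis. Foxm1, a transcription factor of G2 and M phase genes, ran the other way in EMT6-PTR replicates 1 and 2. It measured 55.2, 57.8 and 62.3 CPM in EMT6-P against 74.6 and 66.2 in those tumors, then 14.7 in replicate 3 and 13.5 in the metastasis. The other members of this group were between 4.32-fold (Plk4) and 9.73-fold (Ccna2) lower than the EMT6-P mean in EMT6-PTR replicate 3.

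**Figure D3:**
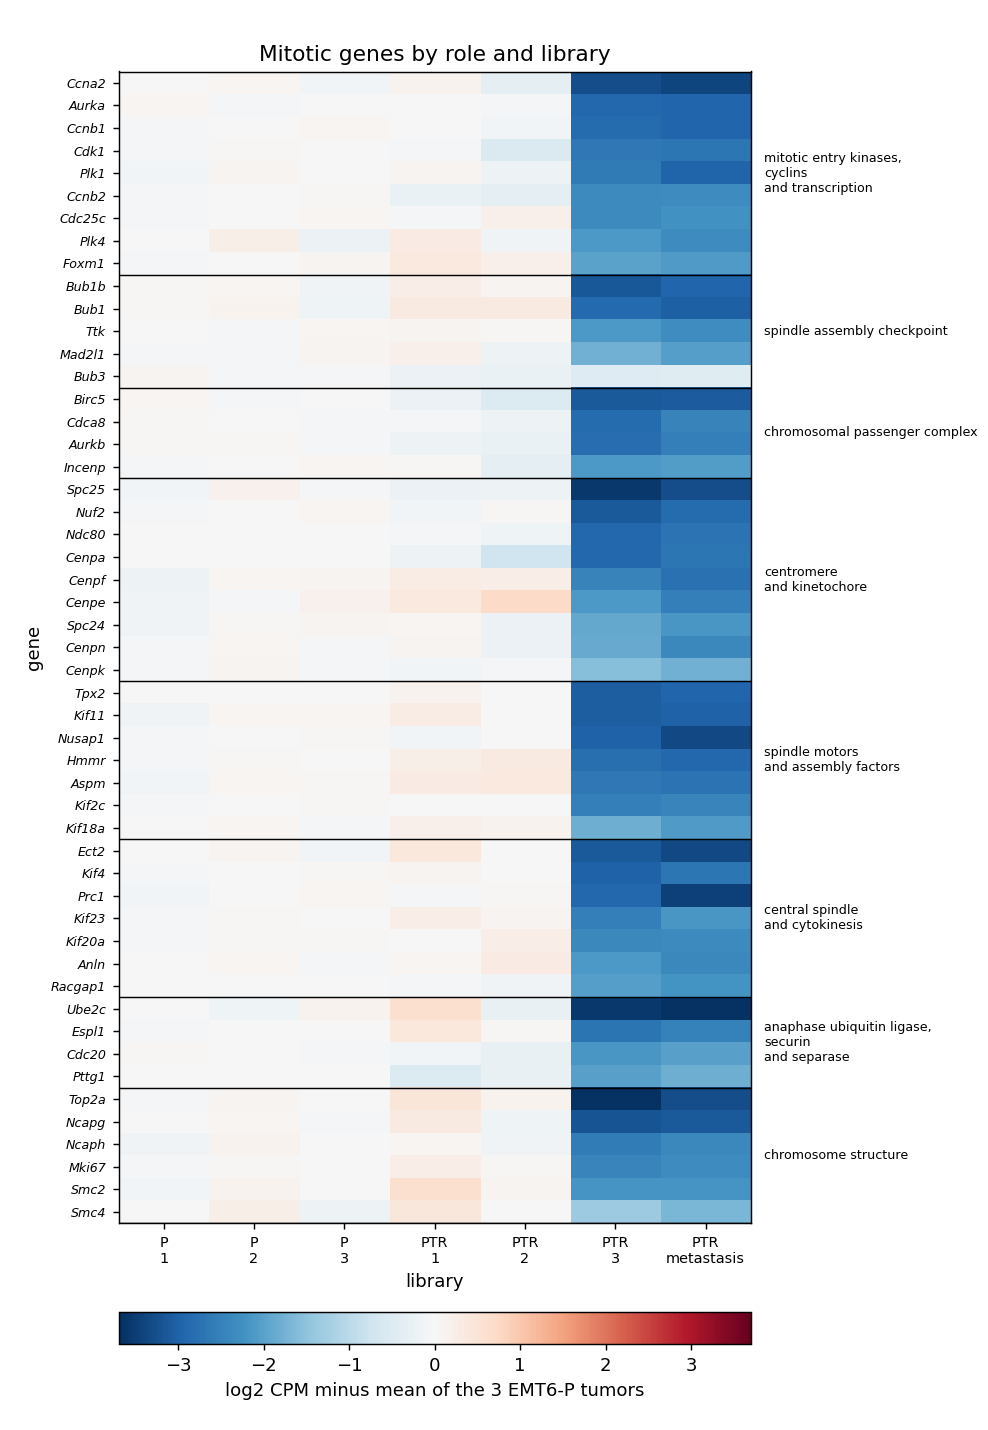
Colors give log2 CPM minus the mean of the 3 EMT6-P tumors for each of the 51 genes (rows, grouped by role and ordered within a role by EMT6-PTR replicate 3) in each of the 7 libraries (columns). The columns of EMT6-PTR replicate 3 and the metastasis are blue in every role group, with values down to -3.67, and Bub3 is the palest row in both.

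The checkpoint genes (5 members) differed least as a group, at -2.08 in EMT6-PTR replicate 3 and -2.15 in the metastasis, and Bub3 accounted for much of that. Bub3 binds unattached kinetochores together with the kinases BUB1 and BUBR1. It measured 103, 92.9 and 92.5 CPM in the EMT6-P tumors, 82.8, 81.7 and 68.5 in EMT6-PTR, and 69.7 in the metastasis. Every EMT6-PTR value was below every EMT6-P value, yet replicate 3 was only 1.40-fold under the EMT6-P mean. The fitted log2 fold change of Bub3 was -0.31 with a standard error of 0.13, and its adjusted p of 0.444 in edgeR was the smallest of any member. Its direction did not rest on replicate 3, since the fit without that tumor gave -0.23 with a standard error of 0.10. Bub1, its partner kinase, was 7.33-fold lower in replicate 3 and 8.16-fold lower in the metastasis, and Mad2l1, which encodes the checkpoint protein MAD2, 3.43-fold and 4.14-fold.

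In the chromosomal passenger complex (4 members), which corrects faulty attachments, the level differences were -2.73 in EMT6-PTR replicate 3 and -2.54 in the metastasis. Replicate 2 stood at -0.31, the lowest of any role group in that tumor. Birc5, encoding survivin, had 95.1, 85.7 and 89.6 CPM in EMT6-P, 76.9, 63.9 and 10.4 in EMT6-PTR, and 10.5 in the metastasis. Aurkb, the kinase of the complex, had 42.7, 42.6 and 39.9 CPM in EMT6-P, 36.8, 35.5 and 5.82 in EMT6-PTR, and 7.15 in the metastasis. For both genes the groups did not overlap, and replicates 1 and 2 lay closer to EMT6-P than to replicate 3. Incenp, the scaffold of the complex, overlapped between groups, with 79.0, 83.5 and 86.6 CPM in EMT6-P, 85.7, 65.6 and 18.9 in EMT6-PTR, and 19.8 in the metastasis.

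Centromere and kinetochore genes (9 members) stood at -2.49 in EMT6-PTR replicate 3 and -2.57 in the metastasis, and held both the lowest and the highest fitted change of all members. Cenpa encodes the histone H3 variant that marks the centromere. It measured 65.7, 66.8 and 67.8 CPM in EMT6-P, 58.6, 39.7 and 8.87 in EMT6-PTR, and 10.3 in the metastasis. The fit put it at -0.90 on the log2 scale with an error of 0.59 and an edgeR adjusted p of 0.555, and at -0.44 without replicate 3. Cenpe, a kinesin that carries chromosomes to the spindle equator, measured 38.3, 40.9 and 47.4 CPM in EMT6-P, 53.8, 69.2 and 9.49 in EMT6-PTR, and 7.23 in the metastasis. Its EMT6-PTR replicates 1 and 2 were above all EMT6-P tumors while replicate 3 was below them. The fitted change was 0.07 with a standard error of 0.63, became 0.54 without replicate 3, and turned negative under other fits. The 4 genes of the NDC80 complex, which grips microtubules, were singled out after their values were seen. In replicate 3, Ndc80, Nuf2 and Spc25 were 7.55-, 8.63- and 11.9-fold lower, and Spc24 3.72-fold.

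Spindle motors and assembly factors (7 members) had level differences of -2.70 in EMT6-PTR replicate 3 and -2.78 in the metastasis, the lowest of the role groups in the metastasis. Tpx2, which activates Aurora A and seeds spindle microtubules, gave 108, 111 and 108 CPM in EMT6-P, 119, 109 and 13 in EMT6-PTR, and 14.2 in the metastasis. Nusap1, a microtubule bundling protein, gave 56.2, 59.9 and 61.0 CPM in EMT6-P, 54.7, 58.2 and 7.38 in EMT6-PTR, and 5.80 in the metastasis. In both genes replicate 3 and the metastasis were far from the other 5 libraries, which lay within a narrow range. Kif18a, a kinesin that limits chromosome movement, differed least in this group at 3.49-fold and 4.31-fold lower.

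For the central spindle and cytokinesis (7 members), which complete the division, the level differences were -2.58 and -2.65. Racgap1, a subunit of the centralspindlin complex, measured 176, 174 and 175 CPM in EMT6-P, 168, 158 and 42.8 in EMT6-PTR, and 37.4 in the metastasis, with no overlap between the groups. Prc1, which crosslinks microtubules in the midzone and was named after its values were seen, was 7.54-fold lower in replicate 3 and 11-fold lower in the metastasis.

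At anaphase (4 members) the differences were -2.60 in EMT6-PTR replicate 3 and -2.50 in the metastasis. Ube2c, the ubiquitin-conjugating enzyme of the anaphase-promoting complex, had 111, 99.5 and 121 CPM in EMT6-P, 165, 90.6 and 9.18 in EMT6-PTR, and 8.55 in the metastasis. EMT6-PTR replicate 1 was the highest library and replicate 3 nearly the lowest, so the resistant tumors spanned all the EMT6-P values. Pttg1, encoding securin, which holds separase inactive, measured 39.6, 39.3 and 39.5 CPM in EMT6-P, 27.8, 32.8 and 9.77 in EMT6-PTR, and 11.2 in the metastasis. The EMT6-P tumors were nearly identical, and all 3 EMT6-PTR tumors were lower. The fitted log2 fold change was -0.75 with a standard error of 0.41 and an adjusted p of 0.50 in edgeR, and -0.39 without replicate 3.

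Chromosome structure genes (6 members) had a level of -2.57 in EMT6-PTR replicate 3, -2.50 in the metastasis and 0.35 in EMT6-PTR replicate 1. Top2a, the topoisomerase that untangles sister chromatids, measured 212, 238 and 221 CPM in EMT6-P, 302, 246 and 17.5 in EMT6-PTR, and 22.7 in the metastasis. EMT6-PTR replicates 1 and 2 were above all EMT6-P tumors, and replicate 3 was 12.7-fold under their mean. Mki67, encoding the proliferation antigen Ki-67, gave 198, 211 and 206 CPM in EMT6-P, 241, 210 and 38 in EMT6-PTR, and 40.5 in the metastasis. Smc2 and Smc4 are the core subunits of condensin, which compacts chromosomes. Smc2 had 54.8, 64.1 and 57.8 CPM in EMT6-P, 88.5, 62.9 and 12.8 in EMT6-PTR, and 12.8 in the metastasis. Smc4 differed less, with 108, 127 and 95.9 CPM in EMT6-P, 148, 108 and 43.2 in EMT6-PTR, and 34.0 in the metastasis. Ncaph, a regulatory condensin subunit, gave 39.2, 46.8 and 42.8 CPM in EMT6-P, 45.2, 39.0 and 7.07 in EMT6-PTR, and 8.15 in the metastasis. In none of these 5 genes were the EMT6-P and EMT6-PTR groups apart, since replicate 1 was within or above the EMT6-P range.

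Against the mean of the EMT6-PTR primary tumors, the metastasis was lower for all 51 members, with a median of -1.70, beside 7988 of all 15645 genes lower and a median of -0.02. At least 2-fold lower were 49 members (8.58% of all genes) and at least 4-fold lower 15 (1.88% of all genes). With replicate 3 left out of that mean the median was -2.54, and it was -1.25 when replicate 1 was left out. There is 1 metastasis, so this difference has no replicate check.

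Lists of other cell cycle genes had mean levels less far below EMT6-P than the 51 members in the same libraries, a contrast that the choice of members with values known can shape. Some genes in them lay near or below the lowest member. Kntc1, of the kinetochore, stood at -3.87 in EMT6-PTR replicate 3 and -4.11 in the metastasis, and Cep55, of cytokinesis, at -3.54 and -3.63, both named after their values were seen. The level differences in EMT6-PTR replicate 3 and the metastasis were -1.65 and -1.76 for 36 other kinetochore and centromere genes, and -1.57 and -1.60 for 35 other spindle, centrosome and cytokinesis genes. They were -1.75 and -1.61 for 36 DNA replication genes and -1.40 and -1.46 for 23 MuvB, B-Myb and cell cycle switch genes. Subunits and regulators of the anaphase-promoting complex (17 genes) stood at -0.40 and -0.57, and cohesin and other condensin genes (17) at -0.59 and -0.85. In the fit of EMT6-PTR against EMT6-P none of these genes passed an adjusted p of 0.05 in edgeR. At an unadjusted p under 0.05, where 5.57% of all genes were lower and 5.84% higher, there were 2 of 36 lower among the other kinetochore genes, 1 of 35 higher among the other spindle genes and 3 of 17 lower in the anaphase-promoting complex list. There were 2 of 17 higher in the cohesin list, 1 lower and 1 higher of 23 in the MuvB list and 5 of 36 lower in the replication list.

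Some of these genes were lower or higher in each EMT6-PTR tumor. Cks1b, a small subunit that binds CDK1, measured 121, 120 and 120 CPM in EMT6-P, 77.5, 61.5 and 22.9 in EMT6-PTR, and 21.1 in the metastasis. Its fitted log2 fold change was -1.16 with a standard error of 0.41 and an adjusted p of 0.427 in edgeR. Nipbl, which loads cohesin, ran the opposite way at 54.0, 52.6 and 57.9 CPM in EMT6-P, 73.5, 92.1 and 112 in EMT6-PTR, and 74.8 in the metastasis. Neither gene's groups overlapped. Pmf1 and Cenpt, at the kinetochore, had fitted log2 fold changes of -0.67 and -0.64, or -0.45 and -0.41 without EMT6-PTR replicate 3. Anapc11 and Anapc13, of the anaphase-promoting complex, had -0.64 and -0.49. Gins4 and Orc6, of the replication machinery, had -0.62 and -0.56. Numa1, which focuses spindle poles, had 0.35 and Wapl, which releases cohesin, 0.47, while Lin52 of the MuvB complex had 0.56 and Haus4 of the augmin complex -0.35. The adjusted p of each of these genes was 0.421 or more in edgeR.

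G1 cyclins and CDK inhibitors (16 genes) did not share 1 direction in the low libraries, with a level of -0.51 in EMT6-PTR replicate 3 and 0.39 in the metastasis. 1 was higher and 1 lower at an unadjusted p under 0.05, Cdkn1b at 0.52 and Cdk4 at -0.48 on the log2 scale. Cdkn1a, encoding the inhibitor p21, measured 220, 180 and 138 CPM in EMT6-P, 136, 218 and 87.7 in EMT6-PTR, and 422 in the metastasis. It was therefore lowest in EMT6-PTR replicate 3 and highest in the metastasis, which the members did not separate. Cdkn2a, the locus of p16 and p19ARF, had 7.55, 6.91 and 9.01 CPM in EMT6-P, 6.24, 6.02 and 18.6 in EMT6-PTR, and 14.8 in the metastasis. Ccnd1, encoding cyclin D1, had 453, 352 and 333 CPM in EMT6-P, 362, 366 and 112 in EMT6-PTR, and 187 in the metastasis.

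**Figure D4:**
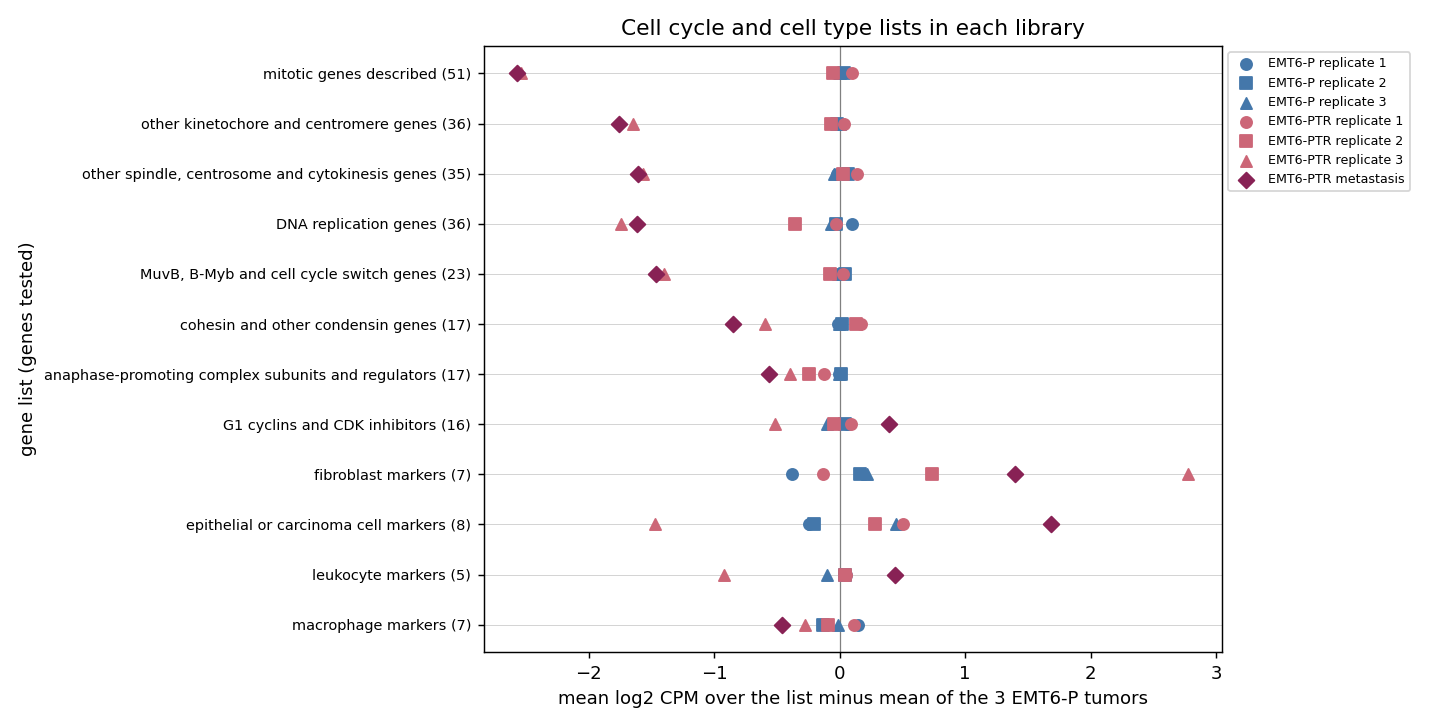
The horizontal axis gives the mean log2 CPM over each list minus the mean of the 3 EMT6-P tumors, and rows are gene lists with the number of genes tested in brackets; circles, squares and triangles are replicates 1, 2 and 3, in blue for EMT6-P and red for EMT6-PTR, and the diamond is the metastasis. The 51 members stand at -2.54 and -2.57 in EMT6-PTR replicate 3 and the metastasis, which the fibroblast list separates at 2.78 and 1.39 and the epithelial or carcinoma list at -1.47 and 1.68.

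The libraries low in mitotic RNA also differed from the others, and from each other, in markers of cell type. In EMT6-PTR replicate 3 the 8 epithelial or carcinoma cell markers stood at -1.47, and their summed level was 617 CPM against 2400 to 2740 CPM in the other primary tumors. Krt8, a keratin of the carcinoma cells, measured 1898, 1755 and 1806 CPM in EMT6-P, 1685, 1720 and 505 in EMT6-PTR, and 743 in the metastasis. The list was not uniform in replicate 3. Relative to EMT6-P, Krt14 stood at -4.35, Krt18 at -2.39, Krt5 at -1.78 and Cdh1 at -1.05. Epcam stood at 0.03, Krt7 at -0.12 and Krt19 at -0.24, but their EMT6-P means were low, at 8.8, 2.34 and 5.53 CPM. Those of Krt5 and Cdh1 were low too, at 10.3 and 7.17 CPM. The 7 fibroblast markers stood at 2.78 in replicate 3. Their summed level there was 21400 CPM, against 5750 to 9440 CPM in the other primary tumors and 13200 CPM in the metastasis. Col1a2, the highest of them in mean CPM over the 7 libraries, measured 2318, 2501 and 2992 CPM in EMT6-P, 2597, 3219 and 4835 in EMT6-PTR, and 3105 in the metastasis. Col3a1, the highest of them in replicate 3 and in the metastasis, measured 813, 734 and 1165 CPM in EMT6-P, 951, 1998 and 9088 in EMT6-PTR, and 6617 in the metastasis. Members of the list differed widely. Col1a1 was at 0.008 in replicate 3 and -0.31 in the metastasis relative to EMT6-P, and Lum at 3.94 and -0.07. Dcn, a matrix proteoglycan gene named, like these, after its values were seen, differed most, with 32.2 to 104 CPM in the other primary tumors, 3345 CPM in replicate 3 and 885 CPM in the metastasis. The mean over the 5 general leukocyte markers was -0.92 in replicate 3 and 0.44 in the metastasis, where single markers ran from -0.04 for Laptm5, the highest in mean CPM, to 1.01 for Coro1a. The mean over the 7 macrophage markers was -0.28 in replicate 3 and -0.46 in the metastasis, with Adgre1 lowest at -1.26 and -1.31 and C1qc highest at 0.20 and 0.09. C1qa, the highest in mean CPM over the 7 libraries, measured 480, 402 and 474 CPM in EMT6-P, 474, 434 and 380 in EMT6-PTR, and 351 in the metastasis. C1qc was higher than C1qa in replicate 3 and in the metastasis, at 405 and 375 CPM. The part of these shifts in the low mitotic level was not tested.

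In the metastasis the 5 lung epithelial markers summed to 7350 CPM, with Scgb1a1, a club cell secretoglobin, at 3007 CPM and Sftpc, a surfactant protein of alveolar cells, at 2348 CPM. In the 6 primary tumors the same markers summed to between 0 and 1.27 CPM. In EMT6-PTR replicate 3, which had the same mitotic level, Scgb1a1 and Sftpc were both at 0 counts. All 5 erythroid, all 5 neutrophil and 4 of the 5 endothelial markers were also highest in the metastasis. The erythroid markers stood at 6.98, with Hbb-bs, a beta-globin gene, at 3799 CPM against 12.4 to 165 CPM in the primary tumors. The neutrophil markers stood at 6.68, with S100a9 at 1545 CPM against 6.18 to 29.0 CPM, and the endothelial markers at 2.01, with Pecam1 at 285 CPM against 37.8 to 60.9 CPM. The exception was Emcn, which was lowest in the metastasis, at 8.51 CPM against 15.7 to 22.0 CPM in the primary tumors. The epithelial or carcinoma list had a mean of 1.68 there, with its members in both directions. Krt7, Krt19, Cdh1 and Epcam were higher than in any primary tumor, at 389, 172, 138 and 52.2 CPM. Krt8, Krt18 and Krt14 were below all EMT6-P tumors, Krt14 at 30.3 CPM against 316 to 524 CPM. Lymphocyte markers were low in every library. The T cell list reached a sum of 18.3 CPM in EMT6-PTR replicate 2 and 33.8 CPM in the metastasis, and the B cell list 20.7 CPM in the metastasis. Cd3d was at most 10.8 CPM, Cd4 5.08 CPM and Cd79a 8.55 CPM. Relative to EMT6-P, the 6 T cell markers that passed the filter stood at 1.57 in EMT6-PTR replicate 2 and 2.05 in the metastasis. Cd79b, the 1 B cell marker that passed, stood at 1.71 and 3.72. The part of this other tissue in the metastasis's low mitotic level was not tested.

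The 6 muscle markers summed to 636, 11.4 and 362 CPM in EMT6-P and 3800, 8.30 and 3.99 CPM in EMT6-PTR replicates 1 to 3, and to 2.72 CPM in the metastasis, with Acta1, the highest in mean CPM, at up to 1659 CPM. Both libraries low in mitotic RNA had the lowest sums, and among the 5 others, which were alike in mitotic level, the sums ran from 8.30 to 3800 CPM. Of the 5 adipocyte markers 1, Fabp4, passed the filter, with 9.67 to 30.1 CPM in all libraries.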

How the data were processed

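RNA was sequenced from 7 tumor tissue samples (3 EMT6-P, 3 EMT6-PTR, 1 EMT6-PTR metastasis). The authors made stranded mRNA libraries, aligned reads to GRCm38 with STAR 2.6.0a and estimated counts per gene with RSEM 1.3.1, after FastQC 0.11.5, per the submitters' processing notes and the study's methods. The deposited values are expected counts, not normalized, of 53465 genes. They were rounded to whole numbers, and gene symbols and positions came from a later GENCODE annotation of GRCm38, matching 53360 IDs. In R 4.3.3, edgeR 4.0.16 filtered genes by filterByExpr, scaled libraries by the upper quartile as the study did, and compared EMT6-PTR with EMT6-P by the quasi-likelihood test with Benjamini-Hochberg adjustment. Levels are log2 CPM with a prior count of 2. Library totals of 20430110 to 25213472 bound the precision of single genes, and 0 counts allow up to 3. Reads shared with pseudogene copies of Ccnb1, Ccnb2 and Kif4 could be split by the estimation. Members and lists were chosen with earlier results of these data known. Named members were, in each role group, the one with the highest mean CPM over 7 libraries and the one with the smallest p. Added to these were the 3 lowest and 3 highest fold changes and fixed mitotic genes. For other lists the 2 smallest p-values were taken (markers, the highest mean CPM). Other members mentioned, such as Bub1, Mad2l1 and Kif18a, were outside this rule and were named with their values known. Fits were tested on simulated data. Alternatives were TMM scaling, DESeq2 1.42.0, limma 3.58.1 (voom), other filters, the metastasis in the fit, a replicate block, removal of CT010467.1 (13.8% of counts in EMT6-PTR replicate 2) and leaving out each tumor.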

Additional observations from a re-analysis of the deposited data

How the results depend on the processing

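Members had a median log2 fold change between -0.93 and -0.42 under every alternative with all 6 primary tumors, and between -0.83 and 0.006 with 1 left out, the latter without EMT6-PTR replicate 3. No setting called a member, and only DESeq2 called any genes, 281 in all. Members at least 2-fold lower numbered 18 under limma-voom and 0 to 9 with a tumor left out. With a tumor left out, 25 to 51 members lay below 0 and 0 to 9 had an unadjusted p under 0.05 in edgeR. In those fits 12 to 22 members had every EMT6-PTR value below every EMT6-P value, and 0 to 11 had every one above. Shares over all genes were not computed for these non-overlap counts, so they are not read as a result about the members. The fold change then ran from -0.84 to 0.0643 for Tpx2, -1.15 to 0.21 for Ube2c, -0.77 to 0.29 for Top2a, -0.55 to 0.21 for Smc4, -0.65 to 0.36 for Smc2, -0.41 to 0.54 for Cenpe, -0.54 to 0.27 for Foxm1 and -0.73 to 0.14 for Mki67, reversing without EMT6-PTR replicate 3 (for Cenpe, without replicate 1 or 2). Cenpe was also -0.41 under limma-voom. With the level taken as a median over members, EMT6-P replicate 2 was at -0.0056 relative to its group, from 0.0353 as a mean. EMT6-PTR replicate 2 was then at 0.0824 relative to EMT6-P, from -0.0522 as a mean. Deviations of same-numbered tumors from their group means correlated at 0.259, 0.253 and 0.0384. Differently numbered tumors were not correlated beside them, so these values cannot settle whether replicate numbers pair the tumors. With the replicate block the members' median was -0.81, 6 were at least 2-fold lower and Cenpe was -0.28. The causes were not tested. With 3 tumors a group and 1 of them far apart, the standard errors limit what can be called.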
